A study of Mus musculus with 4 samples.

Results

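The 6 genes Rbp2, Lrat, Retsat, Adh1, Adh6a and Aldh1a1, which serve vitamin A handling and alcohol oxidation, were followed through the mouse small intestine. They were taken by gene symbol from the 27998 genes of the count table and all 6 were found there. The study dissociated small intestines of mice kept on a ketogenic diet or on a control diet and profiled single cells with the 10x 3′ version 2 chemistry. There were 2 ketogenic libraries and 2 control libraries, and the deposited cell table marks the mice as male. Age, strain, length of feeding and the number of mice behind each library were not given in the sources used here, so every p-value below measures the spread between libraries, which may be technical. The submitters' own cell labels put 15053 cells into 7 types, namely stem cells, transit amplifying cells, enterocytes, goblet cells, Paneth cells, enteroendocrine cells and tuft cells.

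Dietary vitamin A enters the enterocyte as retinol, where RBP2, the cellular retinol-binding protein of the absorptive cell, carries it to LRAT, the acyltransferase that esterifies it for export in chylomicrons. RETSAT saturates a double bond of retinol to give dihydroretinol. ADH1, a class I alcohol dehydrogenase, oxidises retinol as well as ethanol, and ALDH1A1 oxidises retinal to retinoic acid, the ligand of the nuclear receptors RAR and RXR. ADH6A belongs to the same alcohol dehydrogenase family, and its substrates in the gut are less well known.

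In short, Retsat mRNA was higher and Adh6a mRNA lower in the ketogenic libraries in stem cells, transit amplifying cells, enterocytes and goblet cells, each past the test in 2 of these types, while Rbp2 and Lrat showed no difference that passed the test in any type. Retsat rose 2.00-fold in stem cells and 1.84-fold in transit amplifying cells. Adh6a was 2.75-fold lower in transit amplifying cells and 2.25-fold lower in goblet cells. In enterocytes, which held most of the RNA of both genes, the differences had the same signs but did not pass at an adjusted p of 0.05. Adh1 had its highest level in tuft cells, at 1469 to 1678 counts-per-million (CPM, transcript counts scaled to the total of the cells summed) over the 4 libraries, against 71.1 to 143 in enterocytes.

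The libraries held 3194 and 3414 cells with 27316428 and 30292457 unique molecular identifiers (UMIs, 1 per captured transcript) in the ketogenic pair, and 3549 and 4896 cells with 29186729 and 34106639 UMIs in the control pair. Cells with at least 50% mitochondrial UMIs made up 8.14% and 4.63% of the ketogenic libraries and 3.47% and 2.70% of the control libraries, so ketogenic library 1 stood apart. Paneth cell transcripts also differed by library outside Paneth cells: the 7 Paneth markers summed to 383 and 206 CPM in ketogenic enterocytes and to 97.3 and 173 in control enterocytes. Markers of lymphocytes summed to at most 17.6 CPM in enterocytes, macrophage markers to at most 0.155 and stromal or endothelial markers to at most 0.554. The enterocyte label held cells of a wide range, since stem cell markers still summed to 573 and 632 CPM there in the ketogenic libraries, against 407 and 589.5 in the control libraries.

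The 250 bases before the RefSeq start of each gene were read on the mouse build GRCm38.p6, and 3 of these promoters are shown because they belong to the gene that rose, the gene that fell and the gene that held the hexamer searched for. The windows are on the plus strand, at chr9:98490287-98490536 for Rbp2, chr6:72598352-72598601 for Retsat and chr3:138313036-138313285 for Adh6a. Sequences run 5′ to 3′ and end at the base before the start. Capitals mark TATAAA on either strand and the hexamer AGGTCA bound by nuclear receptors, which reads TGACCT when it lies on the minus strand.
Rbp2: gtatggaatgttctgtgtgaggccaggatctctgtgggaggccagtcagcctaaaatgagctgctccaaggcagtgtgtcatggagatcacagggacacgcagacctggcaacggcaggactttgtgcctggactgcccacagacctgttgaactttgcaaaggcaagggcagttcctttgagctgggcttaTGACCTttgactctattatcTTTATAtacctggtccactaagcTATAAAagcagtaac
Retsat: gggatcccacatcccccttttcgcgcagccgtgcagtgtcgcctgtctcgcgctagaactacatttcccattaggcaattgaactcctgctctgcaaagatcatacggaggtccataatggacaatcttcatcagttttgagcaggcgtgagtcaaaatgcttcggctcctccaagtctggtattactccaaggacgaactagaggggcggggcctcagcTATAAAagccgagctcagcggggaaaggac
Adh6a: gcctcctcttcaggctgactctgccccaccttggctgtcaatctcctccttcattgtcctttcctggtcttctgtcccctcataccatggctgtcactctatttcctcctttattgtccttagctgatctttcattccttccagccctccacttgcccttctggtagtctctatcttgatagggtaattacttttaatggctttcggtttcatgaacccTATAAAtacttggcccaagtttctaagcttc

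Among the 7 RefSeq promoters of the 6 genes, searched from 250 bases before to 50 bases after the start on both strands, AGGTCA was found in that of Rbp2 alone, at -58 to -53 on the minus strand. The same hexamer occurs in 16.3% of the 32851 promoters of the table. TATAAA, added to the search after the sequences were seen and held by 13.6% of promoters, lay at -30 to -25 in Retsat and at -31 to -26 in Adh6a. Rbp2 had it at -15 to -10 on the plus strand and at -38 to -33 on the minus strand. The direct repeats of AGGTCA with 1 or 5 bases between them and the HNF4 motif CAAAGTCCA, held by 0.0396%, 0.00913% and 0.475% of promoters, were not among the letters of these 7 windows.

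**Figure D1:**
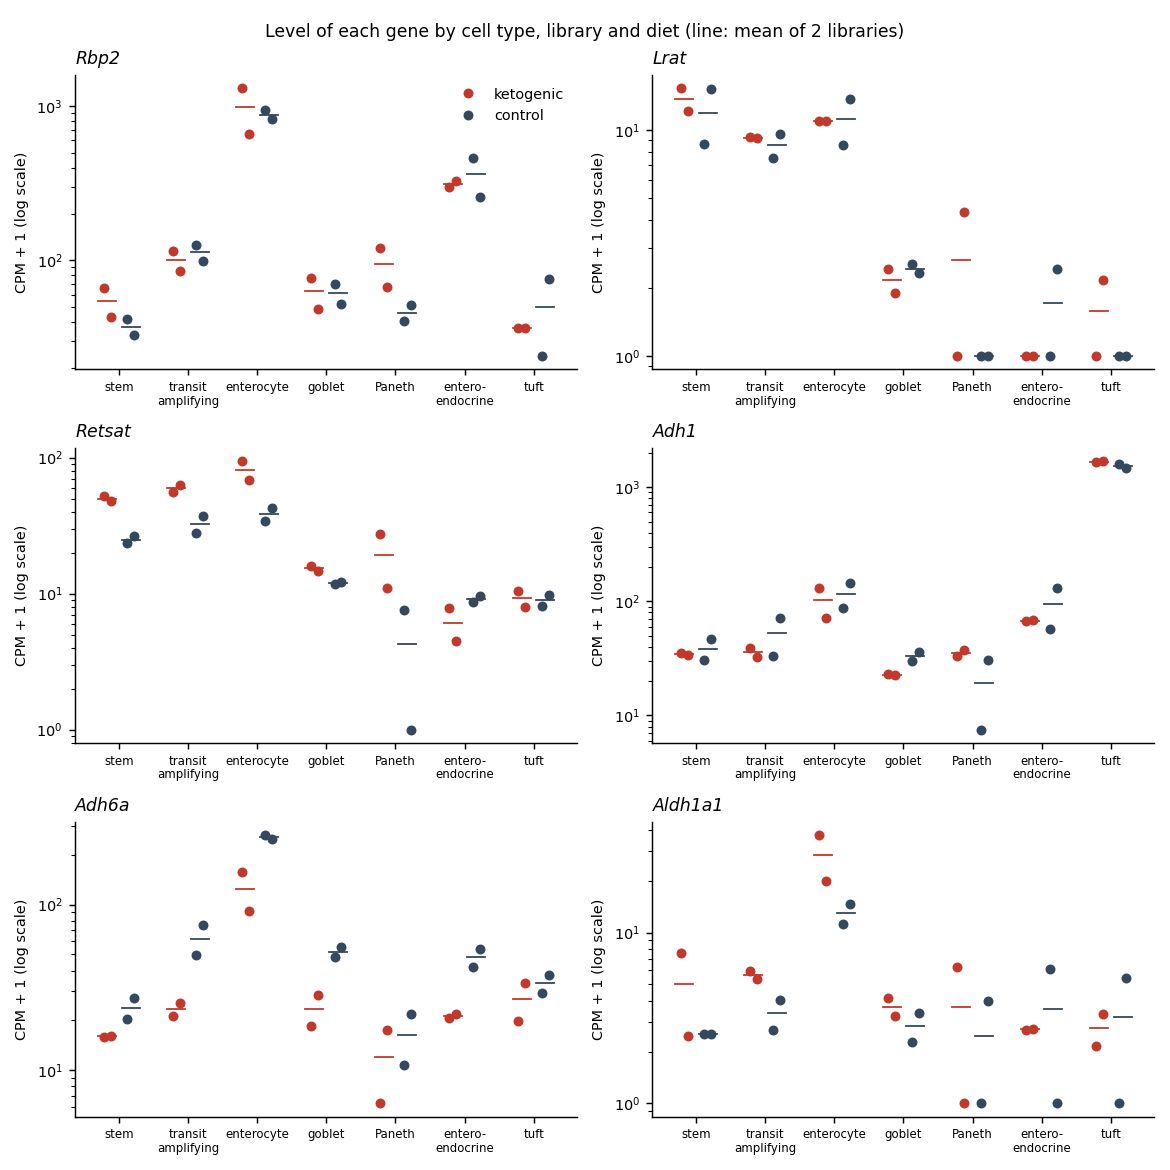
Level of each gene (CPM + 1, log scale) in each of 7 cell types. Each point is 1 library, ketogenic in red left of control in blue, and each line is the mean of the 2 libraries; Rbp2 and Adh6a stand highest in enterocytes, and Adh1 in tuft cells at 1469 to 1678 CPM.

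CPM levels are UMIs of a gene summed over the cells of a type in a library and scaled by their total, which was adjusted by the trimmed mean of M-values. How the submitters labelled cells was not given in the sources used here, and since such labels usually rest on expression, an order between types is a description and was not tested. Over all cells the tests called none of the 6 genes, where 0.172% of 12784 genes were called in either direction (edgeR quasi-likelihood test, Benjamini-Hochberg adjusted p under 0.05). At an unadjusted p under 0.05, 3 of the 6 passed, namely Retsat, Adh6a and Aldh1a1, where 11% of genes did. DESeq2 called the same 3 genes, where it called 1.65% of genes. In such sums over all cells, fewer cells of a type and less RNA per cell cannot be told apart.

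With 2 libraries a diet, pairs that did not overlap were common, and the members' counts are read against that. The ketogenic pair lay wholly above or below the control pair for 3 of 6 tested members over all cells (43.5% of genes), 3 of 5 in stem cells (34.9%), 3 of 6 in transit amplifying cells (39.7%), 3 of 6 in enterocytes (43.3%) and 3 of 4 in goblet cells (38.4%). It did so for 2 of 2 in Paneth cells (39.1%), 1 of 3 in enteroendocrine cells (32.9%) and 1 of 3 in tuft cells (34.1%). A lack of overlap alone is therefore no result about a member, and the edgeR test is given beside it.

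Rbp2 (chromosome 9, 98486115 to 98509781, plus strand, GRCm38) was an enterocyte gene. Enterocytes had 1315 and 664 CPM in the ketogenic libraries, against 939 and 824 CPM in the control libraries. The 2 ketogenic libraries lay on either side of the control pair, and the log2 fold change of ketogenic over control was 0.17 ± 0.29 (SE), with an edgeR adjusted p of 0.873. Its sign depended on 1 library, since it was -0.42 without ketogenic library 1 and 0.58 without ketogenic library 2. Enterocytes held 93.7% and 92.1% of all Rbp2 UMIs in the ketogenic libraries and 94.1% and 93.6% in the control libraries.

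Within enterocytes, Rbp2 was unevenly spread. The 10% of enterocytes with the most Rbp2 held 71.4% and 83.0% of its UMIs in the ketogenic libraries and 65.7% and 75.9% in the control libraries. When enterocytes were split into 5 bins by the mean log level of 8 enterocyte markers, Rbp2 had 57.9 and 42.5 CPM in the lowest bin of the ketogenic libraries, against 46.1 and 43.4 CPM in that of the control libraries. In the highest bin it had 4457 and 3649.7 CPM in the ketogenic libraries, against 2443 and 3241 CPM in the control libraries. The lowest bin carried stem cell transcripts, with Lgr5 at 47.2 and 60.2 CPM in the ketogenic libraries and at 48.1 and 56.7 CPM in the control libraries, and Lgr5 was at 1.9 to 4.4 CPM in the highest bin. Median UMIs per cell in the lowest bin were 3888 and 5555 in the ketogenic libraries and 4820 and 5270.5 in the control libraries. The next bin had 7455 to 10259. Median mitochondrial shares in the lowest bin were 28.3% and 12.99% in the ketogenic libraries and 16.6% and 9.88% in the control libraries. The next bin had 7.10% to 7.58%. The part of cell quality in lowest-bin levels was not tested. The highest bin took in 24.3% and 13.8% of ketogenic enterocytes and 25.0% and 17.5% of control enterocytes, and its share was lowest in ketogenic library 2, the library with the least Rbp2 in enterocytes.

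The enterocyte marker score was added after seeing the data, and the planned villus score, villus tip genes minus villus bottom genes, ordered the cells the other way. In its highest bin Rbp2 had 508 and 395 CPM in the ketogenic libraries and 248 and 305 CPM in the control libraries. In its lowest bin Rbp2 had 3159.9 and 1679 CPM in the ketogenic libraries and 1498 and 1951 CPM in the control libraries. Retsat, Adh1, Adh6a and Aldh1a1 were also lower in its highest bin than in its lowest in each library, and Lrat was higher. The highest villus bin carried Lgr5 at 35.9 and 52.7 CPM in the ketogenic libraries and at 30.5 and 46.3 CPM in the control libraries, and the lowest had 1.40 to 4.79 CPM over the 4 libraries. Median UMIs per cell in the highest villus bin were 4005 and 7508.5 in the ketogenic libraries and 4129 and 5700 in the control libraries. Median mitochondrial shares there were 25.9% and 8.57% in the ketogenic libraries and 21.03% and 8.38% in the control libraries. Directions along enterocytes given here therefore hold for the enterocyte marker score and turn round by the planned score.

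In the crypt, Rbp2 was low. Stem cells had 65.6 and 42.1 CPM in the ketogenic libraries, against 40.3 and 31.7 CPM in the control libraries; the pairs did not overlap, but the log2 fold change of 0.55 ± 0.19 did not pass (edgeR adjusted p = 0.483). With 1 library left out it ran from 0.25 to 0.89. Transit amplifying cells had 114 and 83.8 CPM in the ketogenic libraries, against 125 and 98.0 CPM in the control libraries, and these overlapped. The ratio of the stem cell to the enterocyte level was 0.038 to 0.063 for Rbp2 over the 4 libraries, below the median ratio of the 8 enterocyte markers in each library, which was 0.148 to 0.230. Goblet cells had Rbp2 at 0.058 and 0.072 of the enterocyte level in the ketogenic libraries and at 0.074 and 0.062 in the control libraries. The median of the enterocyte markers there was 0.070 to 0.085 in the 4 libraries. Single markers ran from 0.027 in ketogenic library 1 to 1.48 in control library 2. The part of enterocyte RNA in the goblet counts of Rbp2 was not tested.

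Enteroendocrine cells came second, at 298 and 324 CPM of Rbp2 in the ketogenic libraries and 464 and 258 CPM in the control libraries, with overlapping pairs (log2 fold change -0.18). None of 3 members tested was called there by edgeR or DESeq2, where edgeR called 0.0582% and DESeq2 0.0291% of 6877 genes; 1 passed at an unadjusted p under 0.05, where 4.61% of genes did. That RNA came from few cells. Only 11 and 3 enteroendocrine cells of the ketogenic libraries and 4 and 5 of the control libraries held at least 10 Rbp2 UMIs. Scaled by the unadjusted total of the cells summed, these cells had 70418 and 157693 CPM of Gip in the ketogenic libraries, against 86290 and 46446 CPM in the control libraries. The remaining enteroendocrine cells had 265 and 1325 CPM of Gip in the ketogenic libraries and 335 and 874 in the control libraries. Gip encodes the incretin of K cells. Other hormones were present as well: Cck, the cholecystokinin gene, was at 23628 and 3340 CPM in these cells of the ketogenic libraries and at 24129 and 27283 CPM in those of the control libraries. In the remaining enteroendocrine cells Cck was at 3924 and 4834 CPM in the ketogenic libraries and at 2370 and 3257 CPM in the control libraries. Gcg, the proglucagon gene, was at 6562 CPM in the Rbp2-rich cells of ketogenic library 1 and at 0 in those of the other 3 libraries.

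The same cells had no UMI of Sst, the somatostatin gene, or of Tph1, the enzyme of serotonin synthesis, in any of the 4 libraries. Enterocyte transcripts were present in them. Apoa1, an apolipoprotein of chylomicrons, was at 553 and 30.4 CPM in these cells of the ketogenic libraries and at 59.3 and 236 CPM in those of the control libraries. In the remaining cells Apoa1 was at 18.0 and 10.6 CPM in the ketogenic libraries and at 2.88 and 47.4 CPM in the control libraries. Fabp2, a fatty acid-binding protein, was likewise higher in the Rbp2-rich cells in all 4 libraries, at 553 and 304 CPM in the ketogenic libraries and at 148 and 768 CPM in the control libraries, as was Anpep in 3 of 4. Alpi, an alkaline phosphatase of the brush border, was at 14.5 and 0 CPM in the ketogenic libraries and at 29.6 and 59.1 CPM in the control libraries. The part of enterocyte RNA in the Rbp2 of these cells was not tested. Of these cells, 3 and 3 in the ketogenic libraries and 2 and 1 in the control libraries were among the 6% of cells with the highest doublet score. Without cells of such scores, enteroendocrine Rbp2 was 207 and 136 CPM in the ketogenic libraries and 373 and 229.7 in the control libraries. The cells were picked by their Rbp2 counts and the other genes were looked up afterwards, so these values are a description.

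Lrat (chromosome 3, 82892579 to 82903973, minus strand), which makes retinyl esters, had a low level and a different distribution from Rbp2. Stem cells had 14.3 and 11.1 CPM in the ketogenic libraries, against 7.66 and 14.1 CPM in the control libraries. Enterocytes had 9.90 and 9.94 CPM in the ketogenic libraries, against 7.58 and 12.7 CPM in the control libraries. Transit amplifying cells had 8.25 and 8.17 CPM in the ketogenic libraries, against 6.53 and 8.62 CPM in the control libraries. These 3 types overlapped one another, and in each of them the ketogenic pair overlapped or lay within the control pair; edgeR log2 fold changes were 0.09, -0.04 and 0.10 and all adjusted p-values were 0.947 or above. The fold change in enterocytes had an SE of 0.24, so differences of moderate size could not be detected.

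Lrat did not rise with the enterocyte marker score. In the lowest bin it had 9.45 and 12.2 CPM in the ketogenic libraries, against 9.29 and 12.4 CPM in the control libraries. In the highest bin it had 6.34 and 8.88 CPM in the ketogenic libraries, against 6.15 and 11.2 CPM in the control libraries, lower than in the lowest bin in each library. Goblet cells had 0.906 to 1.54 CPM in the 4 libraries, below every library of the 3 types named above. In enteroendocrine cells, Paneth cells and tuft cells no library had more than 1 Lrat UMI, where even a count of 0 would allow 3. A noncoding gene on the opposite strand, Rbm46os, overlaps Lrat, and whether the counting used strand was not given in the sources used here.

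Retsat (chromosome 6, 72598475 to 72608425, plus strand) was higher in every ketogenic library than in any control library in stem cells, transit amplifying cells, enterocytes and goblet cells. Stem cells had 51.3 and 46.7 CPM in the ketogenic libraries, against 22.5 and 25.5 CPM in the control libraries. The log2 fold change was 1.00 ± 0.18 with an edgeR adjusted p of 0.00449, and Retsat was the only 1 of 5 members tested in stem cells to be called, where 0.263% of 9514 genes were called higher and 0.336% in either direction. The call was lost with DESeq2 (adjusted p = 0.152), which called none of the 5 and 0.147% of genes. It was also lost with only cells under 10% mitochondrial UMIs (log2 fold change 0.84, edgeR adjusted p = 0.228). With 1 library left out the log2 fold change was 0.93 to 1.12. The median mitochondrial share in stem cells was 16.2% and 8.52% in the ketogenic libraries and 11.5% and 8.26% in the control libraries, and its part in the result beyond that filter was not tested.

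Transit amplifying cells had 55.3 and 62.0 CPM of Retsat in the ketogenic libraries, against 27.1 and 36.1 CPM in the control libraries. The log2 fold change was 0.88 ± 0.15 (edgeR adjusted p = 0.0122), and it passed under every alternative that kept all libraries. With 1 library left out it ran from 0.70 to 1.12. Of the 6 members tested in this type, 1 was called higher, where 0.457% of 10069 genes were, and 1 lower, where 0.258% were (0.715% in either direction). Paneth markers in transit amplifying cells summed to 378 and 189 CPM in the ketogenic libraries and to 122 and 103 CPM in the control libraries. Paneth cells themselves held 10 and 3 Retsat UMIs in the ketogenic libraries and 2 and 0 in the control libraries, fewer than 1% of the Retsat UMIs of each library. Enterocytes held 78.1% and 69.3% of the Retsat UMIs in the ketogenic libraries and 74.5% and 70.4% in the control libraries. The part of RNA from other cell types in the transit amplifying difference was not tested.

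Enterocytes had 92.7 and 67.2 CPM of Retsat in the ketogenic libraries, against 33.0 and 41.6 CPM in the control libraries. The pairs did not overlap, yet the log2 fold change of 1.10 ± 0.18 missed the threshold (edgeR adjusted p = 0.0969). None of the 6 members was called in enterocytes, where 0.18% of 11697 genes were called by edgeR and 43.3% of genes had pairs that did not overlap; 3 members passed at an unadjusted p under 0.05, where 9.91% of genes did. DESeq2 called Retsat and Aldh1a1 higher and Adh6a lower in enterocytes, where it called 1.5% of genes. With 1 library left out, the log2 fold change of Retsat in enterocytes ran from 0.84 to 1.31. Such fits leave 1 library in a diet, so no call is read from them.

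The distance between the diets in Retsat was widest in the enterocytes richest in enterocyte markers. The lowest bin had 44.3 and 38.2 CPM in the ketogenic libraries, against 19.8 and 33.5 CPM in the control libraries. The highest bin had 191 and 159 CPM in the ketogenic libraries, against 46.8 and 68.2 CPM in the control libraries. In the upper 50% of enterocytes by this score Retsat had 132 and 93.3 CPM in the ketogenic libraries, against 38.8 and 48.7 CPM in the control libraries, with a log2 fold change of 1.36 ± 0.19 (edgeR adjusted p = 0.0256, where 0.64% of genes were called). In the lower 50% the log2 fold change was 0.60 ± 0.15 (adjusted p = 0.235). The difference between these parts of the enterocytes was not tested.

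The diet effect on Retsat in enterocytes was tested against that in stem cells and in transit amplifying cells, and neither difference passed. The difference of log2 fold changes was 0.00 ± 0.16 for enterocytes minus stem cells and 0.18 ± 0.16 for enterocytes minus transit amplifying cells (edgeR interaction test, adjusted p of 1 and 0.964). No member was called in either interaction by edgeR or DESeq2, where edgeR called 0.259% and 0.0871% of genes and DESeq2 0.112% and 0.0174%. At an unadjusted p under 0.05, 2 of 6 members passed against stem cells, where 6.94% of genes did, and 1 of 6 against transit amplifying cells, where 5.32% did. Goblet cells had 15.1 and 13.6 CPM in the ketogenic libraries, against 10.8 and 11.1 CPM in the control libraries, and the log2 fold change of 0.39 ± 0.20 did not pass (adjusted p = 0.623); its difference from the other types was not tested. In enteroendocrine cells Retsat lay the other way, at 6.80 and 3.45 CPM in the ketogenic libraries and 7.69 and 8.61 CPM in the control libraries, from 2 to 8 UMIs per library. Tuft cells had overlapping pairs, at 9.41 and 7.04 CPM in the ketogenic libraries and 7.05 and 8.80 CPM in the control libraries, from 4 to 8 UMIs. Retsat was too low to be tested in either. Unlike Rbp2, Retsat kept much of its enterocyte level in the crypt, at 0.553 to 0.695 of it in stem cells over the 4 libraries.

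**Figure D2:**
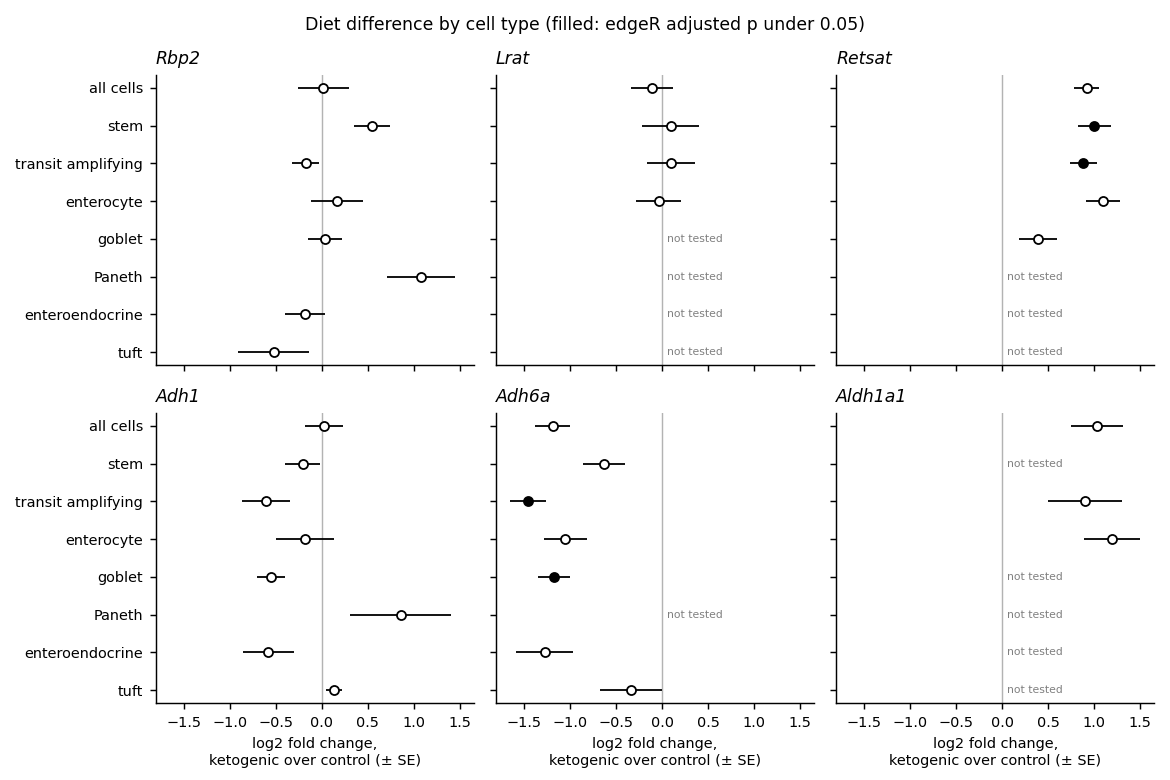
Log2 fold change, ketogenic over control, of each gene in all cells and in each cell type (point, with a line of ± 1 SE; filled where the edgeR adjusted p was under 0.05). Retsat lies right of 0 in every class tested and is filled in stem and transit amplifying cells; Adh6a lies left of 0 in every class tested and is filled in transit amplifying and goblet cells.

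Adh1 (chromosome 3, 138260991 to 138290698, plus strand) had its highest level in tuft cells, the chemosensory cells of the epithelium. Tuft cells had 1676 and 1678 CPM in the ketogenic libraries, against 1589 and 1469 CPM in the control libraries. All 4 libraries lay above every other type, and the next, enterocytes, had 131 and 71.1 CPM in the ketogenic libraries, against 86.0 and 143 CPM in the control libraries. The diet difference in tuft cells was small (log2 fold change 0.13 ± 0.09, edgeR adjusted p = 0.921), although the pairs did not overlap. None of 3 members tested was called in tuft cells by edgeR or DESeq2, where edgeR called 0.0144% and DESeq2 0.0287% of 6963 genes, and 0 passed at an unadjusted p under 0.05, where 5.34% of genes did.

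Adh1 was spread over most tuft cells. At least 1 UMI was seen in 89.7% and 92.6% of ketogenic tuft cells (95% exact Clopper-Pearson intervals 82.6% to 94.5% and 85.9% to 96.7%) and in 86.1% and 86.9% of control tuft cells (76.5% to 92.8% and 79.6% to 92.3%); these intervals cover counting error only. After thinning each cell to 2000 UMIs, the shares were 75.9% and 83.3% in the ketogenic libraries and 79.7% and 76.7% in the control libraries. In enterocytes, the next type by level and thinned alike, the shares were 16.5% and 11.1% in the ketogenic libraries and 11.8% and 18.4% in the control libraries. In goblet cells, also thinned alike, they were 2.94% and 4.72% in the ketogenic libraries and 5.43% and 5.83% in the control libraries. Tuft cells made up 3.63% and 3.16% of cells in the ketogenic libraries and 2.23% and 2.49% in the control libraries, but they held 38.6% and 47.2% of all Adh1 UMIs in the ketogenic libraries and 32.1% and 22.1% in the control libraries. Over all cells Adh1 had 137 and 97.7 CPM in the ketogenic libraries, against 95.6 and 135 CPM in the control libraries, and the pairs overlapped (log2 fold change 0.02 ± 0.21).

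Goblet cells had Adh1 at 22.0 and 21.5 CPM in the ketogenic libraries, against 28.8 and 35.1 CPM in the control libraries. The pairs did not overlap, and the difference of -0.55 ± 0.15 on the log2 scale did not pass (edgeR adjusted p = 0.172). With 1 library left out it ran from -0.69 to -0.41. Transit amplifying cells had 37.7 and 31.6 CPM in the ketogenic libraries, against 32.4 and 70.7 CPM in the control libraries. Control library 2 stood apart from the other 3 there. The log2 fold change was -0.61 ± 0.26 with all libraries (edgeR adjusted p = 0.504), and it ran from -1.04 to 0.09 with 1 library left out. A noncoding gene on the opposite strand, Gm16559, overlaps Adh1, with the same limit on strand as for Lrat.

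Adh6a (chromosome 3, 138313286 to 138331134, plus strand) lies next to Adh1 in the alcohol dehydrogenase cluster and was lower in every ketogenic library than in any control library in stem cells, transit amplifying cells, enterocytes and goblet cells. Enterocytes had 157 and 90.6 CPM in the ketogenic libraries, against 263 and 249.6 CPM in the control libraries. The pairs were well apart, and the ketogenic libraries differed more from each other than the control libraries did. The difference of -1.05 ± 0.23 on the log2 scale missed the threshold (edgeR adjusted p = 0.196). With 1 library left out it ran from -1.51 to -0.71, in fits that leave 1 library in a diet.

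Transit amplifying cells had 20.3 and 24.5 CPM of Adh6a in the ketogenic libraries, against 48.6 and 74.1 CPM in the control libraries. Adh6a fell by 1.46 ± 0.19 on the log2 scale there (edgeR adjusted p = 0.00297), and this passed under every alternative that kept all libraries. With 1 library left out the log2 fold change ran from -1.71 to -1.11. Goblet cells had 17.5 and 27.4 CPM in the ketogenic libraries, against 47.0 and 54.6 CPM in the control libraries. The log2 fold change was -1.17 ± 0.17 (edgeR adjusted p = 0.00423), and it too passed under every alternative that kept all libraries. With 1 library left out it ran from -1.54 to -0.89. Adh6a was the only call among 4 members tested in goblet cells, where 0.21% of 9984 genes were called lower and 0.521% in either direction.

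The goblet values of Adh6a have a limit. Relative to enterocytes of the same library they were 0.111 and 0.303 in the ketogenic libraries and 0.179 and 0.219 in the control libraries, while the median of the enterocyte markers in goblet cells was 0.070 to 0.085 of their enterocyte level. Goblet counts of Adh6a were thus above that median in each library, but Fabp2, the enterocyte marker highest in goblet cells, stood at 0.759 and 1.03 in the ketogenic libraries and 1.40 and 1.48 in the control libraries. In transit amplifying cells Adh6a was at 0.130 and 0.271 of the enterocyte level in the ketogenic libraries and at 0.185 and 0.297 in the control libraries. The median of the enterocyte markers there was 0.231 and 0.344 in the ketogenic libraries and 0.202 and 0.249 in the control libraries. Adh6a lay above that median in control library 2 alone. How much enterocyte RNA entered the goblet and the transit amplifying differences was not tested.

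Adh6a in stem cells was at 14.9 and 15.2 CPM in the ketogenic libraries, against 19.4 and 26.1 CPM in the control libraries, without overlap but without a call (log2 fold change -0.63 ± 0.23, edgeR adjusted p = 0.501). Enteroendocrine cells had 19.6 and 20.7 CPM in the ketogenic libraries, against 41.0 and 53.1 CPM in the control libraries (-1.27 ± 0.31, adjusted p = 0.433), and only 12 to 37 UMIs lay behind each of those values. In tuft cells the pairs overlapped, at 18.8 and 32.8 CPM in the ketogenic libraries and 28.2 and 36.7 CPM in the control libraries. The interaction test did not pass for the effect in enterocytes against that in stem cells (-0.56 ± 0.25, adjusted p = 0.662) or in transit amplifying cells (0.34 ± 0.21, adjusted p = 0.936). The comparison with transit amplifying cells ran from -0.16 to 0.89 with 1 library left out.

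Like Rbp2, Adh6a grew with the enterocyte marker score. The lowest bin had 19.5 and 11.8 CPM in the ketogenic libraries, against 19.0 and 27.7 CPM in the control libraries. The highest bin had 461 and 394 CPM in the ketogenic libraries, against 648 and 823 CPM in the control libraries, and the pairs did not overlap in the 4 upper bins. In the lower 50% of enterocytes Adh6a had 17.6 and 16.9 CPM in the ketogenic libraries, against 31.0 and 40.4 CPM in the control libraries, and it fell by 1.06 ± 0.15 on the log2 scale (edgeR adjusted p = 0.0254, where 0.332% of genes were called). In the upper 50% the difference was -0.95 ± 0.19 on the log2 scale (adjusted p = 0.104).

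**Figure D3:**
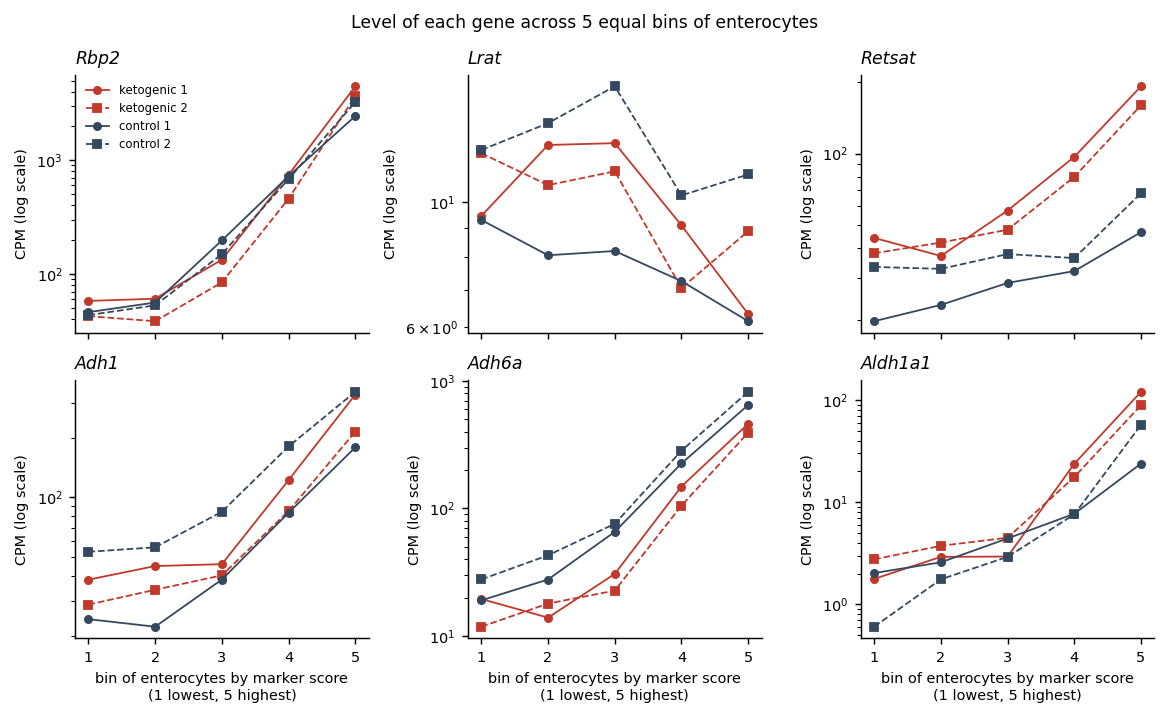
Level of each gene (CPM, log scale) in 5 bins of enterocytes, from the lowest to the highest enterocyte marker score; each line is 1 library, ketogenic in red and control in blue. Rbp2, Adh6a and Aldh1a1 climb steeply, Lrat does not, and in the highest bin Retsat is at 191 and 159 CPM in the ketogenic libraries against 46.8 and 68.2 CPM in the control libraries.

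Aldh1a1 (chromosome 19, 20492715 to 20643465, plus strand), which makes retinoic acid from retinal, was low, and enterocytes held 91.8% and 89.7% of its UMIs in the ketogenic libraries and 91.7% and 88.4% in the control libraries. Enterocytes had 36.4 and 19.0 CPM in the ketogenic libraries, against 10.3 and 13.8 CPM in the control libraries. The pairs did not overlap, and the log2 fold change of 1.19 ± 0.30 did not pass (edgeR adjusted p = 0.258). With 1 library left out it ran from 0.65 to 1.59. The highest enterocyte bin had 120.4 and 89.2 CPM in the ketogenic libraries, against 23.9 and 57.3 CPM in the control libraries, while every library was under 5 CPM in each of the lowest 3 bins.

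Outside enterocytes Aldh1a1 did not exceed 6.56 CPM in any type and library. It did not pass the filter on low counts in stem, goblet, Paneth, enteroendocrine and tuft cells, so among single classes it was tested in enterocytes, transit amplifying cells and all cells. Transit amplifying cells had 4.95 and 4.31 CPM in the ketogenic libraries, against 1.69 and 3.05 CPM in the control libraries (0.90 ± 0.40, edgeR adjusted p = 0.512). The last 500 bases of the Aldh1a1 transcript matched its paralog Aldh1a7 at 79.9% identity over 513 aligned positions, so some reads could have been lost to, or gained from, that gene. Aldh1a7 itself had 5.33 and 3.55 CPM in ketogenic enterocytes, against 2.07 and 1.81 CPM in control enterocytes (1.18 ± 0.29, adjusted p = 0.239).

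Paneth cells gave few counts for the family, and only Rbp2 and Adh1 were tested there. Rbp2 had 119.7 and 66.4 CPM in the ketogenic libraries, against 39.1 and 50.4 CPM in the control libraries, from 12 to 45 UMIs per library. The pairs did not overlap, and the difference of 1.07 ± 0.37 on the log2 scale missed the threshold (edgeR adjusted p = 0.546). Neither gene was called by edgeR or DESeq2, where each called 0.44% of 2957 genes, and 1 passed at an unadjusted p under 0.05 (edgeR), where 7.68% of genes did. Adh1 had 31.9 and 36.5 CPM in the ketogenic libraries, against 6.52 and 29.7 CPM in the control libraries, and the lowest value rested on 2 UMIs.

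In the rest of the pathway 1 gene, Rbp7, was called in the 3 types given here. The lists held 58 further genes of retinoid uptake and binding, carotenoid cleavage, retinol and retinal dehydrogenases, retinoic acid synthesis and breakdown, nuclear receptors, and other alcohol and aldehyde dehydrogenases, of which 57 were in the table. In enterocytes 37 of them were tested and edgeR called none, where it called 0.18% of all genes. At an unadjusted p under 0.05, 11 of the 37 passed, where 9.91% of all genes did, and DESeq2 called 1 higher and 1 lower, where it called 1.5% of all genes. Their median log2 fold change was 0.02, the same as the 0.02 of all genes tested. In stem cells none of 27 tested was called, with 3 at an unadjusted p under 0.05, where 6.42% of genes did, and none called by DESeq2.

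In transit amplifying cells 1 of 29 tested list genes was called, where 0.258% of all genes were called lower and 0.715% in either direction. Rbp7, another cellular retinol-binding protein, had 45.4 and 50.8 CPM in the ketogenic libraries, against 82.3 and 72.5 CPM in the control libraries, and it fell by 0.68 ± 0.12 on the log2 scale (edgeR adjusted p = 0.0152), a call that DESeq2 did not make. In enterocytes Rbp7 had 88.2 and 86.3 CPM in the ketogenic libraries, against 200.01 and 141 CPM in the control libraries, and the difference did not pass (-0.97 ± 0.17, adjusted p = 0.112). The list genes with the most RNA in enterocytes were Aldh1b1, Dhrs4 and Dgat1. Dhrs4, a short-chain dehydrogenase that reduces retinal, had 417 and 357 CPM in ketogenic enterocytes, against 203 and 286 CPM in control enterocytes, without overlap and without a call (0.66 ± 0.17, adjusted p = 0.269).

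Aldh1b1, a mitochondrial aldehyde dehydrogenase, had 568 and 588 CPM in ketogenic enterocytes, against 649 and 606 CPM in control enterocytes (-0.12 ± 0.10, edgeR adjusted p = 0.724). Dgat1, an acyltransferase that can also esterify retinol, had 218 and 172 CPM in ketogenic enterocytes, against 292 and 206 CPM in control enterocytes, and the pairs overlapped (-0.35 ± 0.19, adjusted p = 0.584). The nuclear receptor list had 3 tested members in enterocytes with a median log2 fold change of -0.01, and none was called.

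**Figure D4:**
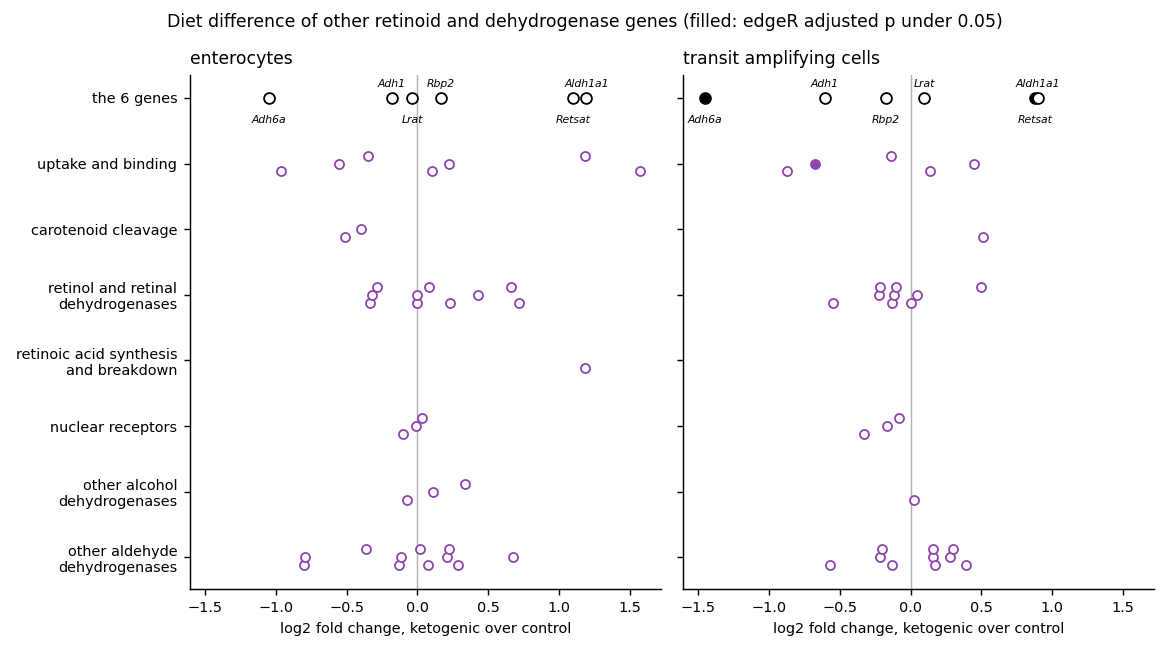
Log2 fold change, ketogenic over control, of the 6 genes (top row, named) and of each tested gene of 7 further lists, in enterocytes (left) and transit amplifying cells (right); each circle is 1 gene, filled where the edgeR adjusted p was under 0.05. Filled in transit amplifying cells are Adh6a at -1.46, Retsat at 0.88 and, in the uptake and binding row, Rbp7 at -0.68.

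Over the 28 sums of 7 cell types in 4 libraries, the genes whose log2(CPM + 1) ran most like each member were found among 9426 genes by Pearson's r, which here mostly follows shared cell types and is a description. Rbp2 ran most like Slc27a4, a fatty acid transporter (r = 0.86), Anpep (0.81) and Cyp2d26 (0.80). Adh6a ran most like Smim24 (0.86) and Mdh2 (0.86), and Aldh1a1 most like Dhrs1 (0.85), Apoa4 (0.82) and Nqo1 (0.80). Those for Retsat were Ccdc107 (0.91), Aldh16a1 (0.91) and Atad3a (0.90), and those for Lrat were Ctss (0.95), Oat (0.94) and 2210407C18Rik (0.94). Adh1 ran with Stk38 (0.93), Ptpn6 (0.92) and Tspo2 (0.92). Within the family, Lrat and Retsat were the closest pair (r = 0.81), followed by Rbp2 with Aldh1a1 (0.68) and with Adh6a (0.67), while Adh1 had no r above 0.24 with any other member.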

How the data were processed

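The authors deposited unnormalised UMI counts for every gene in every cell, and a cell table with library, diet and cell type. The submitters' processing notes name Cell Ranger 2.1.0 and mm10; cell filters, doublet handling and the labelling method were not given in the sources used here. Counts were summed per library and cell type and tested with edgeR 4.0.16 (quasi-likelihood, TMM, filterByExpr by diet, Benjamini-Hochberg over all genes tested, threshold 0.05). DESeq2 1.42.0 in R 4.3.3 was an alternative, and the models were tested on simulated data with genes set to differ by 1 or 2 log2 units. In simulated enterocytes 100% of these genes were recovered and 22 other genes were called falsely. The values were 100% and 19 in transit amplifying cells, 98% to 100% and 6 in stem cells, and 51.7% to 94.8% and 11 in Paneth cells. Only genes above a set mean CPM were made to differ. Lrat and Aldh1a1 lay below it in every type, with highest means of 11.8 and 19.9 CPM, as did Adh6a in stem cells at 18.9. Counts were drawn independently for each gene. Retsat, at 1.10 in enterocytes, was not called in the data, so these rates are not read as the power of the tests. Fold changes are ketogenic over control. The 6 genes and all lists were chosen with earlier results of these data known. List genes were named if called in a class, or else as the 3 of highest mean CPM in enterocytes, and likeness as the 3 highest r; Aldh1a7 and the genes given for Rbp2-rich enteroendocrine cells were named after their values were seen. Scrublet, in scanpy 1.11.5, called 0.0204% to 0.188% of cells doublets, too few to rely on, so leaving out the 6% of cells with the highest score served as the alternative. Between 10 and 26 cell barcodes were shared by each pair of libraries. Positions are from GENCODE M21, on GRCm38 (mm10), and promoters from RefSeq. A planned villus score (villus tip minus villus bottom genes) was supplemented by an enterocyte marker score added after seeing the data. A gene that the rule on likeness also named for Adh6a is not reported here.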

Additional observations from a re-analysis of the deposited data

How the results depend on the processing

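Over 47 combinations of gene and cell type (or interaction), 508 values under alternative settings were computed, among them the fits with 1 library left out. Of the 508 values, 47 changed sign without being called in the main test. The call was lost in 2, both for Retsat in stem cells. How many passed only under an alternative is not given, since fits with 1 library left out are among them. No called fold change changed sign. The number of the 6 genes called over all cells was 0, but 3 with DESeq2 and 3 with no filter on low counts. Of all genes, 22 were called there in the main test, 211 with DESeq2 and 407 with no filter. In enterocytes the number of the 6 genes called was 0, but 3 with DESeq2 and 3 with no filter. It was 1 with cells under 10% mitochondrial UMIs and 1 in the lower part by the villus score. By the enterocyte marker score it was 1 in the upper and 1 in the lower part. Of all genes, 21 were called in the main enterocyte test, 176 with DESeq2, 313 with no filter and 51 with the mitochondrial filter. In the lower villus part 56 genes were called, and 69 and 36 in the upper and lower marker score parts. In stem cells the number of the 6 genes called was 1, but 0 with DESeq2 and 0 with the mitochondrial filter. Of all genes, 32 were called there in the main test, 14 with DESeq2 and 23 with the mitochondrial filter. Leaving out 1 library changed the calls among the 6 genes over all cells and in enterocytes, stem, goblet, enteroendocrine and tuft cells. It also changed them for the interaction of enterocytes and transit amplifying cells. Those calls are not counted here. With 1 library left out, the lone library of a diet takes its spread from the pair of the other. The direction of Rbp2 along enterocytes turned round with the score: the mean ratio of the highest to the lowest bin was 0.179 by the planned villus score and 72.7 by the enterocyte marker score added later. The causes were not tested.

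The libraries carry numbers 1 and 2 in both diets, but nothing says that a number pairs them, and deviations of same-numbered libraries correlated at -0.0469 to 0.134 over the classes. With a replicate block, 1 of the 6 genes was called over all cells (Adh6a) and 2 in enterocytes (Retsat and Adh6a), against 0 without it. Of all genes, the block fit called 69 over all cells and 137 in enterocytes, against 22 and 21 without the block. The counts of the 6 genes called in the other classes stayed within 1.5 times. Paneth, enteroendocrine and tuft sums were shallow, and Lrat and Aldh1a1 counts limit what could be detected outside enterocytes.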
